A study of Homo sapiens with 18 samples.

Results

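The genes described here are 10 genes of inflammasome assembly, pyroptosis and DNA sensing: CASP1, CASP4, CASP5, CARD16, GSDMD, GSDME, IL18, PYCARD, AIM2 and IFI16, out of 40916 gene symbols in the tables. They were chosen on measured values, because CASP1 and IFI16 were nearly absent in 1 of the 2 cell lines. Differences between the lines are therefore given as description, without a test, and tests are given for irradiation and for mixed cultures. All 10 symbols were found, and all 10 had counts in at least 1 library.

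Inflammasomes are cytosolic complexes in which a sensor, often through the adaptor PYCARD (ASC), activates the protease caspase-1. Caspase-1 cleaves the cytokine precursors pro-IL-1beta and pro-IL-18 and the pore-forming protein gasdermin D, and the pores lead to a lytic cell death called pyroptosis. The pathway is best known from macrophages, and epithelial cells also use parts of it, among them caspase-4, IL-18 and the gasdermins.

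RNA was measured by poly(A)-selected, paired-end sequencing in 18 libraries, 3 described as biological replicates in each of 6 groups. MCF10A is a non-transformed human mammary epithelial line, here carrying an H2B-GFP reporter and grown with horse serum, EGF, hydrocortisone, cholera toxin and insulin. HCT116 is a human colorectal carcinoma line, here unlabelled and grown in McCoy's 5A medium with fetal bovine serum. A mixed culture was described as 50% of each line, in a medium that the labels do not give. For each kind of culture there was a group without irradiation (NIR) and a group given 10 Gy (IR). The sample titles name day 2 and the series text names 72 h after irradiation as the time of harvest. Line and medium cannot be told apart in these data, since every MCF10A library came from the one medium and every HCT116 library from the other.

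The libraries held 25.7 to 40.8 M counts (M, 1e+06), and levels are given as CPM, a gene's counts per 1e+06 counts of its library. 8 basal mammary genes summed to 10920 to 18450 CPM in the MCF10A libraries and 56.8 to 148 CPM in those of HCT116, where LAMA3 and LAMB3 made up 56.1 to 142 CPM. 8 intestinal genes summed to 733 to 1680 CPM in HCT116 and to at most 0.441 CPM in MCF10A, with CDX1 at 0 in both HCT116 groups. 8 leukocyte genes summed to at most 10.1 CPM in any library, and TYROBP was at 0 in 5 of the 6. The mixed libraries stood close to HCT116 and went against their description. The median MCF10A-specific gene reached 0.443% of its MCF10A level in mixed NIR (144 genes) and 1.14% in mixed IR (143 genes). Such genes had a mean of at least 20 CPM in MCF10A and stayed under 1 CPM in every HCT116 library, of the same treatment. CASP1 is one of them in both treatments, and IFI16 in NIR only. Fewer MCF10A cells and less RNA per MCF10A cell cannot be told apart in bulk RNA.

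IFI16, a PYHIN-family protein that binds DNA in the nucleus, was among the most abundant transcripts of the 10 in MCF10A and nearly absent from HCT116. In MCF10A NIR it stood at 262, 267 and 267 CPM, and in MCF10A IR at 183, 195 and 199 CPM. The HCT116 NIR libraries had 0.405, 0.684 and 0.290 CPM, from 14, 22 and 8 counts. After 10 Gy the HCT116 libraries had 2.16, 0.979 and 1.55 CPM, from 71, 40 and 40 counts. All MCF10A libraries were far above all HCT116 libraries, and irradiation moved the lines in opposite directions. The MCF10A mean was 578 times the HCT116 mean without irradiation (95% exact interval 424 to 784) and 123 times after it (108 to 150). These intervals cover counting error only and take each count as independent. Of all values from 1 to 10, 68.3% were even, so the intervals may be too narrow.

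IFI16 lies on chromosome 1 at 158999976 to 159055151 (GRCh38.p14, RefSeq), on the plus strand. RefSeq gives windows before 2 of its start sites. Both are shown because this gene has the widest range of CPM among the 10, with the CG dinucleotides in capitals. They are the 250 bases before each start, at chr1:159008741-159008990 and chr1:159009657-159009906.
IFI16, first start: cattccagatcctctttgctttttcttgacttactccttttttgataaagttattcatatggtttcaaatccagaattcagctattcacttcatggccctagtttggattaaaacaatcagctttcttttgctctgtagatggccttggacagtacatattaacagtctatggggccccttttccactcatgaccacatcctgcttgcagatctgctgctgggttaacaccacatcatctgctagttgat
IFI16, second start: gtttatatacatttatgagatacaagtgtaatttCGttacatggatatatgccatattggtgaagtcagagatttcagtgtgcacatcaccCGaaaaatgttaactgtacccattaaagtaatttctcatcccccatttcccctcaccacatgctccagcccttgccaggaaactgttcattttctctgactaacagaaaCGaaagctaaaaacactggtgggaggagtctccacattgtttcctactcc
The windows hold 0 and 3 CG dinucleotides, where the median of 35116 human windows of this length was 11. Neither holds the interferon-response core GAAANNGAAA on either strand, which 3.02% of all windows hold, nor TTCNNNGAA, which 6.57% hold. Such a search says only which letters stand in these windows.

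**Figure D1:**
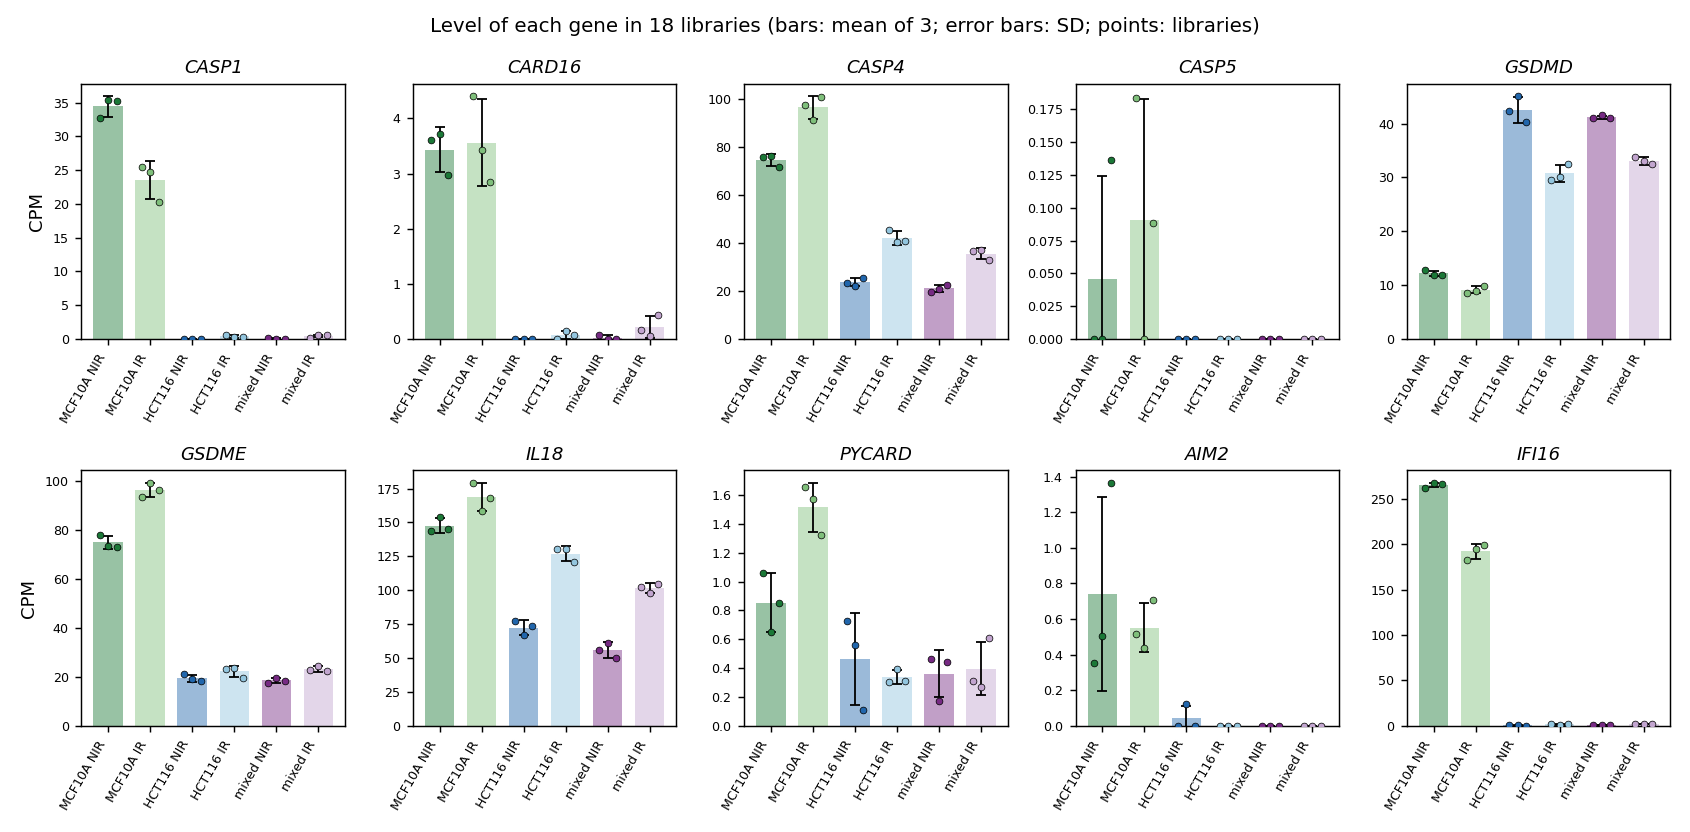
Level of each of the 10 genes in CPM (y axis, a separate scale for each gene) in the 6 groups (x axis), with bars for the mean of 3 libraries, error bars for the SD and points for libraries. CASP1, CARD16, AIM2 and IFI16 are near 0 outside MCF10A, GSDMD is the gene with the higher level in HCT116 and mixed libraries, and CASP5 stays under 0.184 CPM throughout.

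CASP1, the caspase that inflammasomes activate, followed the same split between lines. The MCF10A NIR libraries had 32.7, 35.4 and 35.3 CPM and the MCF10A IR libraries 25.5, 24.7 and 20.3 CPM. No HCT116 NIR library had a CASP1 count. Against the limit of 3 counts over the 3 libraries (0.0318 CPM), the MCF10A NIR mean was at least 1084-fold higher, or at least 542-fold with counts halved. HCT116 IR libraries had 20, 14 and 6 counts, or 0.609, 0.343 and 0.233 CPM, so every irradiated library had counts and no NIR library had any. After irradiation the MCF10A mean was 59.4 times that of HCT116 (42.2 to 81.0, an interval with the same limits as for IFI16).

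CARD16, a decoy protein made of little more than the caspase-1 CARD domain, is the neighbour of CASP1. It had 3.62, 3.72 and 2.97 CPM in MCF10A NIR and 4.41, 3.43 and 2.85 CPM in MCF10A IR, with the groups overlapping. It had 0 counts in HCT116 NIR and 0, 6 and 2 counts in HCT116 IR. The MCF10A NIR mean was at least 108-fold higher than the limit for HCT116 NIR (54.4-fold with counts halved). CARD16 is related in sequence to CASP1, and 3.05% of the 100-base stretches of its transcripts also occur in those of CASP1 (GENCODE v29). How the counting treated reads that fit both is not given in the sources used here, so the low CARD16 values are uncertain.

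CASP4, CASP5, CASP1 and CARD16 lie side by side on chromosome 11 from 104942866 to 105045335 (GRCh38.p14), all on the minus strand. CASP4 and CASP5 encode the human caspases that bind bacterial lipopolysaccharide directly and cleave gasdermin D. CASP4 was present in all 18 libraries. It had 75.9, 76.3 and 71.9 CPM in MCF10A NIR and 97.7, 91.5 and 100.8 CPM in MCF10A IR. In HCT116 it had 23.3, 22.3 and 25.4 CPM without irradiation and 45.4, 40.4 and 40.7 CPM with it. The MCF10A mean was 3.15 times that of HCT116 in NIR and 2.29 times in IR, so this gene of the cluster was lower in HCT116 without being near 0. CASP5 had 4 counts in all of MCF10A NIR, 8 in MCF10A IR and 0 in the other 12 libraries, and no ratio is given for it. The pseudogenes CASP1P2 and CARD17P, farther along the cluster, had counts in MCF10A libraries (29 and 4 in NIR, 29 and 11 in IR) and 0 in HCT116 and mixed libraries.

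CASP4 and CASP5 are a pair of neighbouring relatives, the one measured in every library and the other near 0. The 250 bases before their start sites are shown to set them side by side, with the CG dinucleotides in capitals (minus strand, chr11:104968575-104968824 and chr11:105023169-105023418).
CASP4: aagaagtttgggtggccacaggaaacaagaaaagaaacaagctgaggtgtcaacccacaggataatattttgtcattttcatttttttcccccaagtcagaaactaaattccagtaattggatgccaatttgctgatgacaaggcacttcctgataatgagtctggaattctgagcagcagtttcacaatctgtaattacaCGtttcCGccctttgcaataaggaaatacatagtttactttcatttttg
CASP5: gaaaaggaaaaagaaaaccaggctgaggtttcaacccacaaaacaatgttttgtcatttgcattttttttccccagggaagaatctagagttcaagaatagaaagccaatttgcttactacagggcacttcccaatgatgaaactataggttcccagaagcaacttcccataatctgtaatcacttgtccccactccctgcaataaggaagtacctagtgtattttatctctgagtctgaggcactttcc
In a global alignment 174 of 231 aligned bases were identical, 75.3%. The CASP5 window holds 2 overlapping matches of GAAANNGAAA and 1 of TTCNNNGAA, and the CASP4 window holds neither. RefSeq windows were found for 6 of the 10 genes. The AIM2 window (chr1:159076767-159077016) holds 1 match of GAAANNGAAA, on its opposite strand, and those of GSDME and PYCARD hold none and have 28 and 16 CG dinucleotides.

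AIM2, the cytosolic sensor of double-stranded DNA and the neighbour of IFI16, was low everywhere. It had 0.353, 0.507 and 1.37 CPM in MCF10A NIR and 0.514, 0.438 and 0.706 CPM in MCF10A IR. HCT116 NIR had 4 counts in 1 library, and the other 11 HCT116 and mixed libraries had 0. The IFI16 and AIM2 genes overlap at their ends on opposite strands. Whether strand was used in counting is not given, but AIM2 was at most 1.37 CPM where IFI16 was at 183 CPM or more. MNDA and PYHIN1, the other PYHIN genes of this stretch, had 0 counts in all HCT116 and mixed libraries. MNDA had 2 counts in MCF10A, and PYHIN1 had 10, 14 and 14 counts in MCF10A NIR.

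PYCARD, the adaptor ASC, was low in both lines. It had 1.06, 0.648 and 0.854 CPM in MCF10A NIR and 1.65, 1.57 and 1.32 CPM in MCF10A IR. HCT116 NIR had 0.723, 0.559 and 0.109 CPM, which overlapped MCF10A NIR, and HCT116 IR had 0.305, 0.392 and 0.311 CPM. PYCARD-AS1, the antisense gene that overlaps it, had at most 5 counts in a library.

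IL18, the precursor of a cytokine that caspase-1 and caspase-4 can process, was high in every library. MCF10A NIR had 144, 154 and 145 CPM, and MCF10A IR 179, 159 and 168 CPM. HCT116 NIR had 77.3, 66.7 and 73.3 CPM, and HCT116 IR 130, 130 and 120 CPM. The MCF10A mean was 2.04 times that of HCT116 in NIR and 1.33 times in IR, with no overlap between the lines.

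The gasdermins went in opposite directions between the lines. GSDMD encodes gasdermin D, the pore-former cut by inflammatory caspases. It had 12.7, 11.9 and 11.9 CPM in MCF10A NIR against 42.3, 45.2 and 40.3 CPM in HCT116 NIR. In IR the values were 8.60, 8.97 and 9.85 CPM against 29.6, 30.1 and 32.5 CPM. The HCT116 mean was 3.50 times the MCF10A mean in NIR and 3.36 times in IR, and GSDMD was the one member of the 10 with a higher mean in HCT116. GSDME encodes gasdermin E, which caspase-3 can cut. It had 77.9, 73.5 and 73.0 CPM in MCF10A NIR against 20.9, 18.9 and 18.3 CPM in HCT116 NIR, a ratio of 3.86. In IR it had 93.2, 99.2 and 96.1 CPM against 23.2, 23.7 and 19.6 CPM, a ratio of 4.34.

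Counted over the 10 genes, 9 had the higher mean in MCF10A in either treatment, and for 7 of them in NIR and 8 in IR the libraries did not overlap. Of all genes with counts, 19.6% were higher in MCF10A without overlap in NIR and 19.9% in IR. Since the choice of genes used this contrast, nothing is read from these counts. Of 7 members at 1 CPM or more in MCF10A NIR, 3 stood under 1% of that level in HCT116 NIR (CASP1, CARD16 and IFI16), where 2.93% of all such genes did. In IR it was 1 of 8, IFI16, beside 3.10% of all genes. IFI16 was inside this limit, at 0.815% of the MCF10A IR level, and CASP1 (1.68%) and CARD16 (2.10%, from 8 counts) were outside. CASP1 and IFI16 were chosen for near absence in HCT116, so nothing is read from the counts under 1% either.

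Some other genes of the pathway showed the same near absence, in a list of 50 genes of which 49 were in the tables. Of 30 list genes at 1 CPM or more in MCF10A NIR, 6 stood under 1% of that level in HCT116 NIR, beside 2.93% of all such genes. They were the DNA sensor CGAS, the NLRP3-binding protein TXNIP, the cytokines IL1A, IL1B and IL33, and the guanylate-binding protein GBP1. In IR it was 7 of 35, beside 3.10% of all genes: GSDMA and PYHIN1 joined and GBP1 dropped out. The list was chosen with earlier results of these data known, so nothing is read from these counts. List genes also went the other way, among them GSDMB, NAIP and IL18BP. In HCT116 NIR these stood at 1943%, 354% and 332% of the MCF10A NIR level. CGAS, for example, had 925, 1052 and 848 counts in MCF10A NIR and 0, 6 and 0 counts in HCT116 NIR. STING1, which acts after CGAS, had 42.2 ± 0.414 CPM (SD, n = 3) in MCF10A NIR and 25.6 ± 2.99 CPM in HCT116 NIR.

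Levels of different genes were compared per kilobase of exonic length (GENCODE v29, since the annotation used for counting is not given). In MCF10A NIR, IL18 had 56.2 ± 2.08 CPM per kb (SD, n = 3) and IFI16 50.1 ± 0.509. CASP4 (10.3 ± 0.336), CASP1 (9.32 ± 0.419) and GSDME (8.46 ± 0.305) followed. GSDMD (2.38 ± 0.0935), CARD16 (2.04 ± 0.240), PYCARD (0.514 ± 0.124), AIM2 (0.369 ± 0.272) and CASP5 (0.0286 ± 0.0496) were lower. PYCARD and AIM2 did not differ beyond their spread. In HCT116 NIR the order was IL18 (27.6 ± 2.04), GSDMD (8.32 ± 0.474), CASP4 (3.26 ± 0.218) and GSDME (2.19 ± 0.156), with the other 6 genes under 0.280 CPM per kb. By this measure IL18 led in both lines, and IFI16 was second in MCF10A and sixth in HCT116. The order of IL18 and IFI16 in MCF10A NIR rests on the exonic lengths used, 2628 and 5294 bases. In CPM, IFI16 was higher there (265 against 148 CPM), and the SDs do not cover uncertainty in length.

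Across the 18 libraries the gene with the pattern most like that of CASP1 was IFI16, with a Pearson correlation of 0.996 of log2(CPM + 0.5) among 15436 genes, and MGST1 (0.996) and TNIP3 (0.995) followed. For IFI16 they were LAMC1 (0.997), CASP1 (0.996) and MGST1 (0.996). CASP1 and IFI16 were chosen for this split between the lines, so their likeness restates the choice, and it is given as a description. All these genes separate the 6 MCF10A libraries from the other 12, and 986 genes reached 0.95 with CASP1 and 1038 with IFI16. LAMC1 and MGST1 were not absent from HCT116: their NIR means were 223 and 62.0 CPM there, against 652 and 320 CPM in MCF10A.

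The effect of 10 Gy was tested in each kind of culture with edgeR's quasi-likelihood test, with p-values adjusted over all genes tested (Benjamini-Hochberg) and called under 0.05. In MCF10A, IFI16, CASP1 and GSDMD fell and CASP4, GSDME and IL18 rose. Thus 6 of the 9 members tested were called, beside 55.4% of 15154 genes (26.2% higher and 29.2% lower), so the share lies near the background. The median log2 fold change of the 9 was 0.02, and that of all genes 0.0035. CASP5 did not pass the filter on low counts.

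IFI16 changed by -0.49 ± 0.043 on the log2 scale (SE, edgeR adjusted p = 1.6e-10), a fold of 0.714, and no IR library reached the NIR range. CASP1 changed by -0.58 ± 0.087 (edgeR adjusted p = 2.07e-06), and its IR libraries also lay below all NIR libraries. GSDMD changed by -0.43 ± 0.12 (edgeR adjusted p = 0.00266). The folds of CASP1 and GSDMD were 0.669 and 0.741. CASP4 rose by 0.35 ± 0.054 and GSDME by 0.34 ± 0.053 (edgeR adjusted p = 2.61e-06 and 3.02e-06). IL18 rose by 0.17 ± 0.049 (edgeR adjusted p = 0.00423), and without MCF10A IR replicate 1 by 0.12 (adjusted p = 0.0604), which ends the call. PYCARD did not pass, at 0.80 ± 0.37 (edgeR adjusted p = 0.0687), although its libraries did not overlap. It passed with upper-quartile factors (0.0435) and with counts halved (0.0443). CARD16 (0.02 ± 0.22) and AIM2 (-0.41 ± 0.52) had overlapping groups.

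CASP1 and CASP4, in the same cluster with CASP5 between them, thus moved in opposite directions in MCF10A. PYHIN1, near IFI16 on chromosome 1, rose where IFI16 fell. PYHIN1 went from 0.294, 0.394 and 0.478 CPM to 1.58, 1.39 and 1.47 CPM, a log2 fold change of 1.90 ± 0.44 (edgeR adjusted p = 0.000575).

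Of the pathway list, 25 of 38 tested genes were called in MCF10A, 20 higher and 5 lower. Of all genes tested 55.4% were called, 26.2% higher and 29.2% lower. The median log2 fold change was 0.48 in the list and 0.0035 over all genes. The named genes were those with the 3 largest changes at 1 CPM or more. The cytokine IL36G rose from 0.289 ± 0.156 to 2.30 ± 0.634 CPM (SD, n = 3; log2 fold change 2.97 ± 0.44, edgeR adjusted p = 1.59e-06). GSDMA, a gasdermin of stratified epithelium, rose from 1.28 ± 0.321 to 5.03 ± 0.743 CPM (1.95 ± 0.24 on the log2 scale, edgeR adjusted p = 1.03e-07), and PYHIN1 was the third. All 4 genes of the gasdermin and membrane rupture list rose (GSDMA, GSDMB, GSDMC and NINJ1), while GSDMD fell. In the IL-1 family 6 of 7 tested genes were called. IL1A, IL1B, IL1RN, IL33 and IL36G rose, and the receptor chain IL18R1 fell. The sensors NLRP1 and NLRP3 rose, 2 of the 6 sensors tested. With 55.4% of all genes called, nothing is read from counts in lists this short.

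With upper-quartile factors the split of all calls in MCF10A moved from 3976 higher and 4419 lower to 4838 and 3579. The members called then were 4 higher and 3 lower, in place of 3 and 3.

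In HCT116, CASP4, IL18 and IFI16 rose after 10 Gy and GSDMD fell. That is 4 of the 6 members that passed the filter (CASP1, CARD16, CASP5 and AIM2 did not), beside 52.5% of 16857 genes (25.3% higher and 27.2% lower). IL18 rose by 0.82 ± 0.067 on the log2 scale (SE, edgeR adjusted p = 5.51e-10) and CASP4 by 0.84 ± 0.088 (2.66e-08). All IR libraries lay above all NIR libraries for both genes. IFI16 rose by 1.75 ± 0.47 (edgeR adjusted p = 0.00305), a fold of 3.37 at a level that stayed at or under 2.16 CPM. GSDMD changed by -0.46 ± 0.081 (edgeR adjusted p = 4.01e-05). GSDME, at 0.20 ± 0.10, did not pass (edgeR adjusted p = 0.106), and did so without HCT116 IR replicate 3 (0.29, adjusted p = 0.0374). PYCARD (-0.46 ± 0.63) had overlapping groups.

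CASP1 did not pass the filter on low counts in HCT116. Its mean after 10 Gy was at least 12.4-fold the limit of 3 counts over the NIR libraries, or at least 6.21-fold with counts halved. An exact 2-sided permutation test over the libraries gave p = 0.1, the smallest that 3 against 3 allow. Without the filter edgeR gave an adjusted p of 0.00023, and with all 18 libraries in 1 fit 3.59e-05. CARD16 gave 0.191 and 0.0353 in the same fits. The MCF10A libraries, with far more counts of both genes, entered the filter and the dispersion of the fit with all 18 libraries. Nothing is therefore read from its values for HCT116. The summed level of genes that mark MCF10A was also higher in HCT116 IR. The 8 basal genes summed to 56.8 to 71.0 CPM in HCT116 NIR and 130 to 148 CPM in HCT116 IR, with TP63 and TGFBI at 0 in the first group and no gene at 0 in the second. Of these sums LAMA3 and LAMB3 made up 56.1 to 70.0 CPM in NIR and 123 to 142 CPM in IR, and the other 6 genes 0.579 to 0.932 and 5.12 to 7.00 CPM. The median MCF10A-specific gene stood at 0.0876% of its MCF10A level in HCT116 NIR and 0.138% in HCT116 IR. CASP1 stood at 1.68% ± 0.824 (SD, n = 3) and IFI16 at 0.815% ± 0.308 in HCT116 IR. The 8 basal genes ranged there from 0.00709% (TGFBI) to 1.61% (LAMB3), with LAMA3 also at 1.61%, KRT5 at 0.0553% and TP63 at 0.0249%. MCF10A-specific genes were selected to stay under 1 CPM in HCT116, which holds their percentage low there. The 8 basal genes were not selected by that limit. Of the list genes under 1% in HCT116 NIR, TXNIP went from 4 counts in HCT116 NIR to 0 in HCT116 IR. IL33 stayed at 0 counts and CGAS at 6. IL1A went from 90 counts to 143, IL1B from 50 to 199 and GBP1 from 8 to 44. The part of MCF10A RNA in the CASP1 and IFI16 values was not tested.

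**Figure D2:**
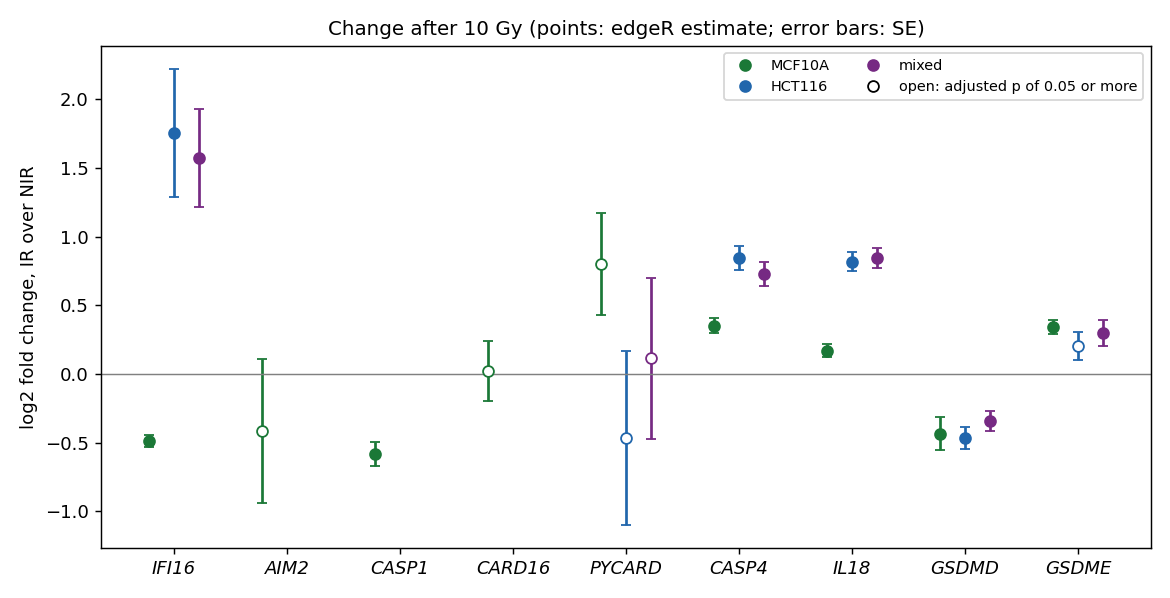
Log2 fold change of IR over NIR (y axis) for the 9 genes tested in at least 1 kind of culture (x axis), as edgeR estimate with SE, in MCF10A, HCT116 and mixed cultures; open points have an adjusted p of 0.05 or more. IFI16 is at -0.49 in MCF10A, 1.75 in HCT116 and 1.57 in mixed cultures, and GSDMD is below 0 in all 3.

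Of the pathway list, 17 of 29 tested genes were called in HCT116, 9 higher and 8 lower, beside 52.5% of all genes. The median log2 fold change was 0.12 (all genes 0.01). IL1RN, the IL-1 receptor antagonist, rose from 0.520 ± 0.238 to 2.88 ± 0.566 CPM (SD, n = 3; 2.48 ± 0.37 on the log2 scale, edgeR adjusted p = 5.63e-06). IL1B rose from 0.528 ± 0.0817 to 1.99 ± 0.153 CPM (1.92 ± 0.38, edgeR adjusted p = 0.000162). IL18R1 fell from 4.76 ± 0.490 to 1.69 ± 0.425 CPM (-1.46 ± 0.24, edgeR adjusted p = 1.74e-05). CASP8, the apical caspase of death receptors, rose in HCT116 (0.83 ± 0.081, edgeR adjusted p = 7.67e-09) and fell in MCF10A (-0.20 ± 0.062, adjusted p = 0.00678). IL18R1, the receptor chain for IL-18, fell in both lines.

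The responses of the lines were then set against each other, as the difference of the log2 fold changes, HCT116 minus MCF10A. For 6 members every group had at least 10 counts, and 3 of these differed, all with the higher value in HCT116. Of 18179 genes, 37.3% differed (15.4% higher and 21.9% lower in HCT116), and the median difference was -0.10. The difference was 2.12 ± 0.29 for IFI16 (SE, edgeR adjusted p = 1.73e-06), 0.57 ± 0.085 for IL18 (7.24e-06) and 0.41 ± 0.098 for CASP4 (0.00138). For IFI16 this SE is smaller than that of the HCT116 response alone (1.75 ± 0.47). The groups of both lines shared a dispersion per gene in this fit, and HCT116 NIR held 14, 22 and 8 IFI16 counts. The precision of the IFI16 difference may therefore be overstated. IFI16 moved in opposite directions, and IL18 and CASP4 rose in both lines, more in HCT116. GSDMD (-0.11 ± 0.13, edgeR adjusted p = 0.561) and GSDME (-0.21 ± 0.11, 0.117) did not pass. PYCARD, at -1.35 ± 0.73 (edgeR adjusted p = 0.159), passed without HCT116 NIR replicate 3 (-1.78, adjusted p = 0.0398). CASP1, CARD16, AIM2 and CASP5 had under 10 counts in a group and are described by their levels above.

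The mixed cultures, described as an even mixture of the lines, had levels near those of HCT116. IFI16 had 0.859, 0.808 and 0.389 CPM in mixed NIR and 2.21, 1.76 and 2.21 CPM in mixed IR. CASP1 had 6, 0 and 0 counts in mixed NIR and 8, 20 and 22 in mixed IR, and CARD16 2, 0 and 0 and then 6, 2 and 16. GSDMD had 41.0, 41.5 and 41.0 CPM in mixed NIR, within the HCT116 NIR range and far above MCF10A.

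**Figure D3:**
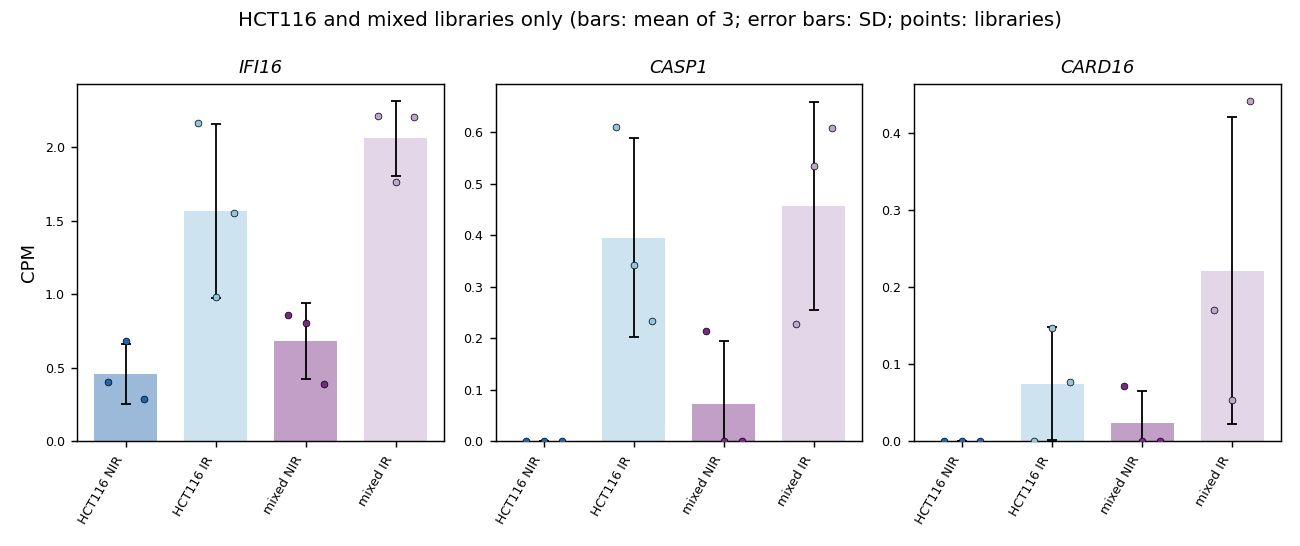
IFI16, CASP1 and CARD16 in HCT116 and mixed libraries only, in CPM (y axis, a separate scale for each gene) by group (x axis), with bars for the mean of 3 libraries, error bars for the SD and points for libraries. IFI16 reaches 2.16 CPM in HCT116 IR and 2.21 CPM in mixed IR, and CASP1 has 0 counts in HCT116 NIR.

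As a percentage of the MCF10A level of the same treatment, IFI16 stood at 0.258% ± 0.0971 in mixed NIR (SD, n = 3) and 1.07% ± 0.134 in mixed IR. CASP1 stood at 0.208% ± 0.360 and 1.94% ± 0.861. The median MCF10A-specific gene was at 0.443% (quartiles 0.196% and 0.987%) in mixed NIR and 1.14% (0.544% and 2.35%) in mixed IR. The basal genes ranged from 0.0251% (KRT5) to 3.50% (LAMB3) in mixed NIR. The means of IFI16 and CASP1 lay within the quartiles of MCF10A-specific genes in the mixed libraries. That set itself holds CASP1 in both treatments and IFI16 in NIR, so this position is a description. HCT116 alone gave 0.173% ± 0.0763 (NIR) and 0.815% ± 0.308 (IR) for IFI16. For CASP1 it gave 0% (NIR) and 1.68% ± 0.824 (IR). The part of MCF10A RNA in the mixed values was not tested.

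**Figure D4:**
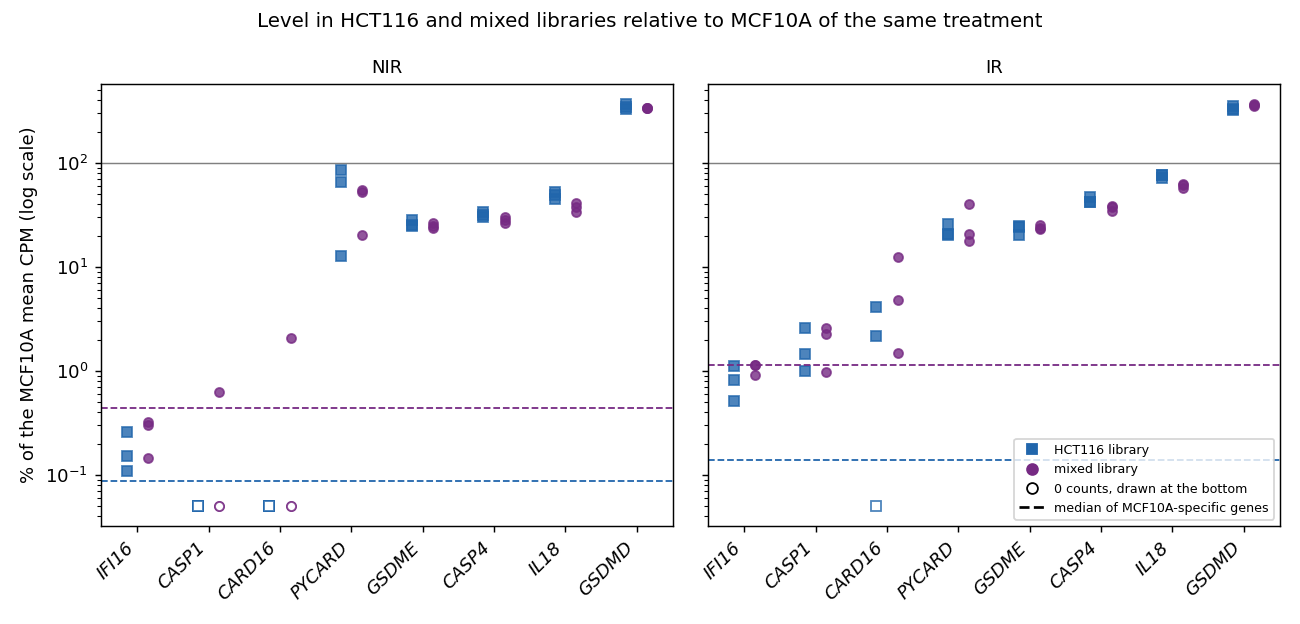
Level of 8 genes in each HCT116 and mixed library as a percentage of the mean MCF10A level of the same treatment (y axis, log scale), in NIR and IR panels; dashed lines give the median of MCF10A-specific genes in each kind of library, and open symbols at the bottom are libraries with 0 counts. IL18, CASP4, GSDME and PYCARD lie between 12.7% and 84.7%, GSDMD lies above 100%, and IFI16 at most at 1.15%.

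Irradiation of the mixed cultures gave calls for 5 of the same 6 members, beside 49.4% of 16906 genes (24.0% higher and 25.4% lower). IL18 rose by 0.84 ± 0.073 on the log2 scale (SE, edgeR adjusted p = 4.59e-09), CASP4 by 0.72 ± 0.087 (5.62e-07) and IFI16 by 1.57 ± 0.36 (0.000937). GSDMD changed by -0.34 ± 0.072 (edgeR adjusted p = 0.000492). GSDME rose by 0.30 ± 0.092 (edgeR adjusted p = 0.0102), and without mixed IR replicate 2 the adjusted p was 0.0686, which ends the call. PYCARD was at 0.11 ± 0.59. Of the pathway list 18 of 31 tested genes were called, 13 higher and 5 lower, with a median of 0.23 (all genes 0.01). The 3 largest changes were in GBP1 (0.104 ± 0.0432 to 2.70 ± 0.141 CPM, SD, n = 3), IL1B (0.579 ± 0.321 to 3.10 ± 0.379 CPM) and IL1A (1.47 ± 0.174 to 5.48 ± 0.625 CPM). Their log2 fold changes were 4.65 ± 0.43, 2.39 ± 0.36 and 1.87 ± 0.21 (edgeR adjusted p = 1.15e-08, 9.94e-06 and 2.53e-07). GBP1 stood at 9.73% of its MCF10A IR level in mixed IR and 1.45% in HCT116 IR. IL1B stood at 0.323% and 0.208%, and IL1A at 0.671% and 0.173%. The 8 basal genes summed to 127 to 141 CPM in mixed NIR and 381 to 442 CPM in mixed IR, of which LAMA3 and LAMB3 made up 86.1 to 103 and 233 to 270 CPM. The part of MCF10A RNA in these changes was not tested.

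Set directly against HCT116, the mixed cultures had lower IL18. In NIR it had 56.2, 61.3 and 49.7 CPM against 77.3, 66.7 and 73.3 CPM, a log2 difference of -0.36 ± 0.083 (SE, edgeR adjusted p = 0.0251). This was the 1 call among 6 members tested, beside 2.04% of 16455 genes. In IR it had 103, 97.8 and 105 CPM against 130, 130 and 120 CPM, a difference of -0.33 ± 0.057 (edgeR adjusted p = 0.000168). CASP4 was also lower in IR, with 36.6, 37.1 and 33.1 CPM against 45.4, 40.4 and 40.7 CPM (-0.25 ± 0.078, edgeR adjusted p = 0.0368). These were 2 calls among 7 members tested, beside 8.56% of 17137 genes. Since MCF10A had the higher level of both genes, the mixed means lay outside the range between the monocultures, below HCT116. The IL18 call in NIR was lost on leaving out HCT116 NIR replicate 1 or 3 or mixed NIR replicate 1 or 3 (edgeR adjusted p 0.0847 to 0.117). The CASP4 call was lost without HCT116 IR replicate 1 or 3 or mixed IR replicate 2 or 3 (0.0528 to 0.233) and with all 18 libraries in 1 fit (0.0728).

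The response of the mixed cultures did not differ detectably from that of HCT116 in any of 6 members (0 called by edgeR, 0 at an unadjusted p under 0.05 and 0 by DESeq2), beside 0.83% of 18072 genes called. The differences were -0.17 ± 0.57 for IFI16, 0.04 ± 0.10 for IL18, -0.11 ± 0.12 for CASP4, 0.13 ± 0.10 for GSDMD, 0.11 ± 0.14 for GSDME and 0.58 ± 0.93 for PYCARD (log2, SE). For IFI16 and PYCARD the SE was 0.57 and 0.93, several times that of the other 4, so a difference was least detectable in them.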

How the data were processed

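Each library came with a deposited table of raw, unnormalized counts by gene symbol. Reads went through fastp, STAR and featureCounts on GRCh38, per the submitters' processing notes; versions, the annotation and the use of strand are not given in the sources used here. The kit was Illumina Stranded mRNA Prep, per the labels' protocols. Of the values from 1 to 10, 68.3% were even, so fits with counts halved were run.

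The members and lists were chosen with earlier results of these data known. Libraries were grouped by their titles. Replicates differed by more than counting error (chi-squared per gene 4.97 to 15.1), and none was counted as a duplicate. Same-numbered libraries had mean residual correlations of -0.061 to 0.105 over 15 pairs of groups and were not taken as paired.

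CPM were computed over library totals of 25.7 to 40.8 M counts. Each comparison was fitted with edgeR 4.0.16 in R 4.3.3 (TMM, filterByExpr, quasi-likelihood test, 2-sided, Benjamini-Hochberg over all genes tested) on the libraries of its groups. The fits were tested on simulated data in which only well-counted genes changed, so calls on low counts were not covered. Alternatives were no filter, DESeq2 1.42.0, other scalings, counts halved, all 18 libraries together, a replicate block and leaving out each library. A group at 0 counts was set to 3 counts over its 3 libraries for a lower bound. Named genes were the 10 members, the 3 pathway genes with the largest called change at 1 CPM or more in each irradiation comparison, the 3 genes most correlated with CASP1 and IFI16, and their neighbours on the chromosome. Other genes named were members of the lists, chosen after their values were seen. Promoter windows came from RefSeq (GRCh38.p14). 1 genotype detail of the HCT116 cells and the gene it concerns are not reported here.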

Additional observations from a re-analysis of the deposited data

Results flagged for a closer look

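The irradiation responses of the 2 lines differed for 3 of the 6 genes with at least 10 counts in every group, by the test of the difference itself (HCT116 minus MCF10A, edgeR, adjusted over all genes), where 37.3% of all 18179 genes tested differed. IFI16 differed by 2.12 on the log2 scale, with 1.78 to 2.53 over 21 alternative settings, and was called in all 21. Each setting fitted both lines together, and the HCT116 NIR libraries held 14, 22 and 8 IFI16 counts. The precision for IFI16 may therefore be overstated in all of them. IL18 differed by 0.57 (0.51 to 0.72) and CASP4 by 0.41 (0.35 to 0.55), each also called in all 21.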

How the results depend on the processing

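Counts of members called changed by more than 1.5 times in 3 comparisons. For HCT116 IR against NIR the count was 7 with all 18 libraries in 1 fit, where CASP1, CARD16 and GSDME were added, in place of 4 (4 to 6 on leaving out 1 library). The MCF10A libraries, with far more counts of CASP1 and CARD16, entered the filter and the dispersion of that fit. The additions of CASP1 and CARD16 are therefore not read as calls in HCT116. For mixed IR against HCT116 IR the count was 1 with all 18 libraries in 1 fit, in place of 2 (1 to 2 on leaving out 1 library), and for mixed NIR against HCT116 NIR 0 to 1 on leaving out 1 library. The replicate block changed no call of a member; it moved the count of all genes called from 335 to 716 in mixed NIR against HCT116 NIR and from 1467 to 2220 in mixed IR against HCT116 IR. All genes called in mixed NIR against HCT116 NIR numbered 671 without the filter, 573 with DESeq2 and 768 with all 18 libraries, and 145 or 178 without mixed NIR replicate 1 or HCT116 NIR replicate 2. For the difference of mixed and HCT116 responses they were 150, with 336 without the filter, 298 with DESeq2 and 64 to 93 without 1 library in 8 cases. Without mixed IR replicate 2 or 3, mixed IR against HCT116 IR gave 866 or 914.

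Direction changed on leaving out 1 library for members that were not called. After 10 Gy in MCF10A the log2 change was -0.75 to 0.34 for AIM2 and -0.16 to 0.16 for CARD16, and in mixed cultures -0.33 to 0.32 for PYCARD. Mixed against HCT116 gave -0.0611 to 0.0098 for GSDMD and -0.81 to 0.0831 for PYCARD in NIR. In IR it gave -0.065 to 0.62 for CASP1, -0.029 to 0.11 for GSDME and -0.22 to 0.43 for PYCARD. Response differences were -0.14 to 0.0541 for GSDMD (HCT116 minus MCF10A), and for mixed minus HCT116 -4e-04 to 0.14 for GSDME, -0.59 to 0.12 for IFI16 and -0.0659 to 0.0916 for IL18. The causes were not tested. Ratios between the lines rest on library totals and moved with TMM-scaled CPM, without a change of direction. In NIR the log2 ratio of MCF10A over HCT116 was then 1.24 for IL18, 1.87 for CASP4, -1.60 for GSDMD and 2.16 for GSDME. On library totals, leaving out 1 library gave 0.97 to 1.08, 1.62 to 1.71, -1.84 to -1.76 and 1.91 to 2.01. In IR the TMM-scaled values were 0.57, 1.36, -1.59 and 2.28. The median over MCF10A-specific genes in mixed cultures was 0.343% (NIR) and 1.01% (IR) with genes at 50 CPM or more. Depth limits CASP5, AIM2 and PYCARD in all libraries, and CASP1, CARD16 and IFI16 outside MCF10A, which rest on under 100 counts a library.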
